A study of Rattus norvegicus with 8 samples.

Results

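The motile cilia and axoneme genes described here are the rat genes whose array names belong to the families that build or move a cilium. They were chosen by a rule on names, with earlier results of these data known. It took Foxj1, Hydin, Ccdc39, Ccdc40 and every gene with a name of the Rfx, Dnah, Dnai, Dnal, Tekt, Rsph, Spag, Spef or Ift series. The rule found 57 of the 26214 gene names on the array, read by 66 of its 30367 probes of 60 bases each. Because the rule reads names, it also took in genes of the Spag series that are known for other roles, and these are described apart.

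A motile cilium is a hair-like cell projection built on an axoneme, a ring of doublet microtubules around a central pair. Dynein arms on the doublets pull neighbouring doublets past each other, and radial spokes and the central pair control the beat. The transcription factor FOXJ1 and the RFX factors, which bind a DNA element called the X-box, switch on these genes, and intraflagellar transport carries the parts to the tip. In the female reproductive tract the beating cells line the oviduct, while most other cells of the ovary carry at most a primary cilium, which uses intraflagellar transport but no dynein arms, spokes or central pair.

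Ovary RNA of immature female rats was hybridised to 8 Agilent arrays in a single dye, with 4 arrays per label (control and PMSG). Pregnant mare serum gonadotropin, PMSG in short, acts mainly like follicle-stimulating hormone and in part like luteinising hormone. At 26 days of age the PMSG rats received 50 IU under the skin in 0.2 ml of buffered albumin and the control rats the same volume of buffer, and ovaries were taken 48 h later, at 28 days. The strain is not given in the sources used here, and the labels call the arrays replicates without saying that each is a separate animal, so p-values measure only the spread between these samples.

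Levels are log2 signals minus the 75th percentile of all probes on the same array, so that 0 is the 75th percentile, and a difference is the mean of the PMSG arrays minus the mean of the control arrays. The 75th percentile lay at a signal of 1002 to 1103 on the control arrays and 769 to 1082 on the PMSG arrays, and 80.8% to 84.6% of probes were well above background. No spot was saturated. Several genes that respond to gonadotropin differed against the direction generally known for this treatment: Lhcgr, the luteinising hormone receptor, was lower by a difference of -1.93 on the PMSG arrays, and Star and Cyp11a1, which start steroid synthesis, by -2.75 and -3.36. Amh, a product of small growing follicles, and Insl3, a theca cell hormone, were higher by 3.03 and 2.60. Whether the labels are exchanged between the groups was not tested, and an exchange would turn every direction below. Every direction follows the labels, and "PMSG arrays" means the arrays so labelled.

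A few probes are shown first because they read named genes of the dynein arm, radial spoke, tektin and Spag groups. Each has at least 1 reading frame without a stop codon in its 60 bases, as most member probes do. That does not show that a probe lies in coding sequence. They were picked after their values had been seen. Positions are those the array files give on build rn4, and exon and UTR annotation of that build was not analysed here.
Dnai1 (chr5:59054173-59054232, + strand): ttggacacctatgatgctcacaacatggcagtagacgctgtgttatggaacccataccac
Rsph9 (chr9:10413558-10413617, + strand): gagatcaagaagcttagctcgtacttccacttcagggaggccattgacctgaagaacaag
Tekt1 (chr10:59229122-59232111, - strand): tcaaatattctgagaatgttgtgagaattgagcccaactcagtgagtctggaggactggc
Tekt2 (chr5:145691429-145691639, - strand): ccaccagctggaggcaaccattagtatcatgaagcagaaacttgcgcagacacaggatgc
Spag8 (chr5:60129160-60129219, - strand): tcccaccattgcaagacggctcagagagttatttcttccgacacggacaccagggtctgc
The Tekt1 probe covers 2990 bases of the genome and the Tekt2 probe 211 bases for their 60 bases each, so both join separate genomic stretches of the transcript. None of the 66 member probes has the same sequence as a usable probe outside the member genes, and member probes were not compared with each other.

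Of the 57 genes, 52 had at least 1 probe well above background on 4 or more of the 8 arrays and were tested, each by its brightest such probe. On the PMSG arrays 31 of the 52 genes were higher, 1 was lower (Spag7) and 20 did not pass the threshold, an adjusted p under 0.05 in limma (Benjamini-Hochberg, computed on the whole array). Over all 25303 tested probes 34.2% passed it, 17.6% higher and 16.6% lower, and over the brightest probe of each gene name 34.5% did, 18% higher and 16.5% lower. The median difference of the 52 genes was 0.73, against 0.11 over all tested probes. The higher calls include 20 genes that were at least 2-fold higher, and 7.2% of all tested probes were called higher at that size. For 32 genes every PMSG array lay above every control array. Over all tested probes 36.6% had groups that did not overlap, 17.9% with PMSG above. In whole-tissue RNA a larger number of cells of a type and more RNA per cell cannot be told apart.

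**Figure D1:**
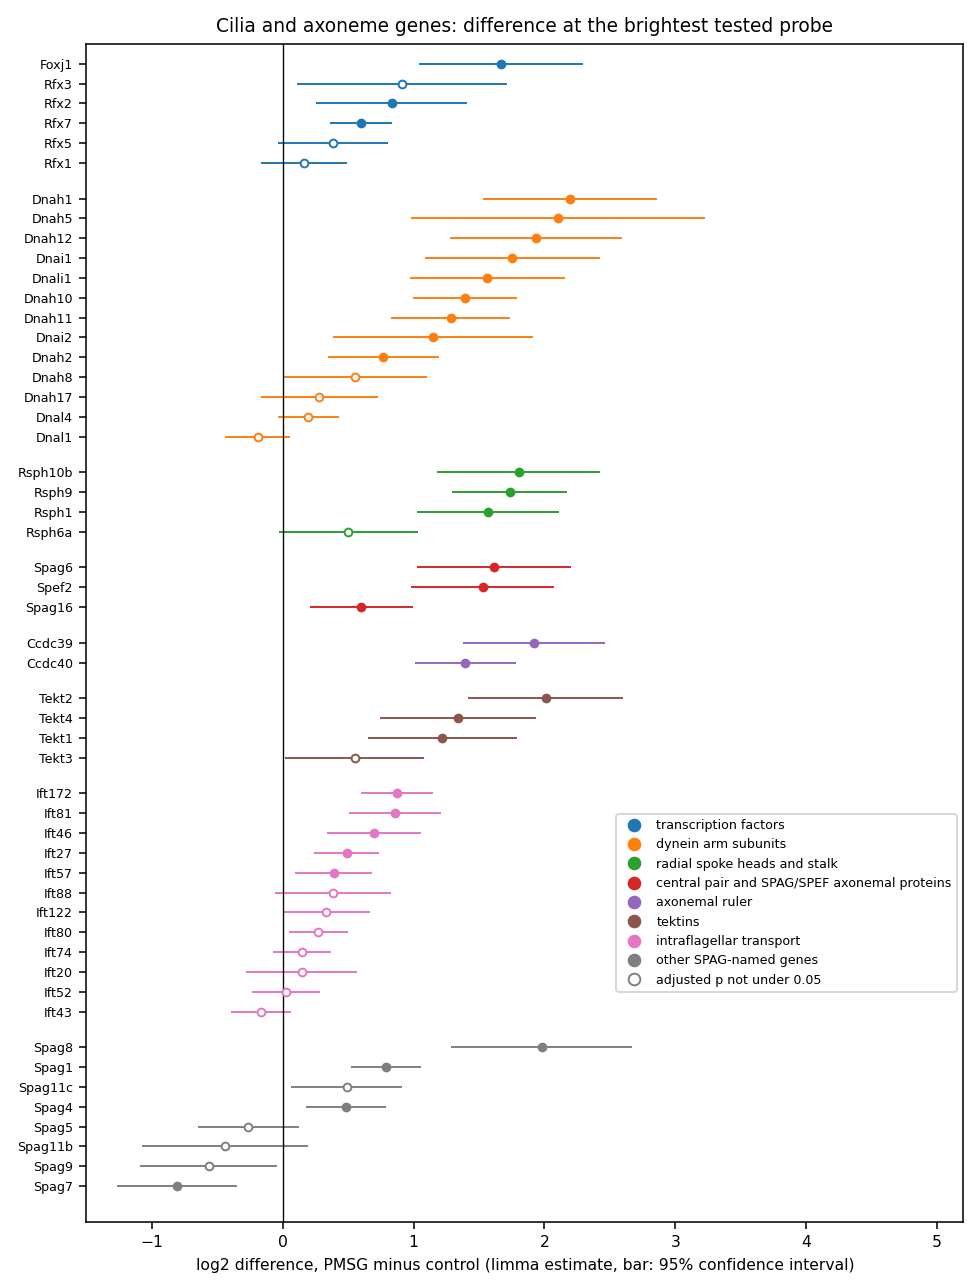
Log2 difference of each tested gene at its brightest probe, PMSG minus control, grouped by role, with 95% confidence intervals from limma (4 arrays a group); filled points have an adjusted p under 0.05. Dynein arm, spoke, central pair, ruler and tektin genes lie mostly between 1 and 2.20, and intraflagellar transport genes between -0.16 and 0.87.

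The counts are given by role, and differences between roles were not tested. Dynein arms, radial spokes, central pair, ruler and tektins together hold 26 tested genes, of which 20 were higher, none was lower and 6 did not pass, with a median difference of 1.39. Of the 12 intraflagellar transport genes 5 were higher, with a median of 0.36 (0.23 without PMSG array 4) and none reaching 2-fold. The 6 transcription factors had 3 higher genes and a median of 0.72, and the 8 other Spag-named genes had 3 higher and 1 lower with a median of 0.11, which lay between 0.05 and 0.07 without control array 3 or PMSG array 1 or 3, at 0.04 under quantile normalization and at 0.48 over the genes above background on all 8 arrays. Without PMSG array 3 a second of them, Spag11b, was lower as well (-0.71, adjusted p = 0.0189). Scaling each array to its median in place of its 75th percentile, which moves the median of all probes to -0.05, left 19 of the 26 axonemal genes and 2 of the 12 transport genes higher and turned the median of the other Spag-named genes to -0.06. Under that scaling 2914 of all 8448 called probes were higher, against 4452 of 8658 here. A normexp background correction, which adds an offset of 50 to every signal and so by construction draws the differences of dim probes towards 0, gave medians of 1.04 for the axonemal genes, 0.42 for the transcription factors and 0.17 for the other Spag-named genes.

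Foxj1, the transcription factor that commits a cell to motile cilia, read 1.13, 0.85, 1.1 and 0.25 on control arrays 1 to 4 and 1.86, 2.58, 2.64 and 2.94 on PMSG arrays 1 to 4. All PMSG arrays were above all control arrays, and control array 4 and PMSG array 4 marked the extremes. The difference was 1.67 ± 0.27 (SE, n = 4 and 4), a 3.18-fold higher mean, with a limma adjusted p of 0.00234.

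The RFX family gave smaller values. Rfx2, a regulator of ciliary genes, read -1.0, -1.56, -0.85 and -1.79 on the control arrays and -0.64, -0.77, -0.46 and 0.00 on the PMSG arrays. The groups did not overlap, but PMSG array 2 was only just above control array 3. Its difference of 0.83 ± 0.25 (SE) had an adjusted p of 0.0350, which rose to between 0.0548 and 0.0911 without control array 2 or 4 or without PMSG array 1, 3 or 4, under median scaling and with the replicate number as a block. Rfx3, another ciliary RFX factor, was well above background on 1 control and 3 PMSG arrays, from -7.33 to -5.92 on control and -6.37 to -5.28 on PMSG arrays, and its difference of 0.91 missed the threshold (adjusted p = 0.0763). Rfx1 and Rfx5, of which Rfx5 is known for controlling MHC class II genes, had differences of 0.16 and 0.39 and did not pass. Rfx5 passed with array weights (adjusted p = 0.0143) and without PMSG array 4 (0.57, adjusted p = 0.00267). Rfx6 was not above background on any array.

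Rfx7 had probes that passed in opposite directions. Its brighter probe, which begins at base 7728 of the transcript, read 1.81, 1.87, 1.80 and 1.81 on control and 2.63, 2.30, 2.29 and 2.45 on PMSG arrays, a difference of 0.60 (adjusted p = 0.00301). The probe at base 4612 read -4.24, -4.17, -4.19 and -4.35 on control and -5.35, -4.85, -4.73 and -4.84 on PMSG arrays, a difference of -0.71 (adjusted p = 0.00665). Neither probe had overlapping groups, so the direction for Rfx7 depends on the stretch of transcript read.

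Among dynein arm genes 9 of 13 tested were higher, 8 of them at least 2-fold. Dnah1, an inner arm heavy chain, read -5.43, -6.08, -5.67 and -6.21 on control and -4.41, -3.62, -3.46 and -3.12 on PMSG arrays. Every PMSG array was at least 1 log2 unit above every control array. The mean was 4.58-fold higher, a difference of 2.20 ± 0.29 (SE, adjusted p = 0.000903). With the normexp correction the difference was 0.94 and still passed.

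Dnah12, an inner arm heavy chain too, read -1.92, -2.44, -2.29 and -2.92 on control and -0.97, -0.67, -0.37 and 0.18 on PMSG arrays, a difference of 1.94 ± 0.29 (SE, adjusted p = 0.00148). Its probe nearer the 5′ end gave 1.98. Dnai1, an outer arm intermediate chain whose probe is printed above, read -4.21, -5.37, -4.67 and -5.29 on control and -3.48, -3.01, -3.34 and -2.68 on PMSG arrays. The groups were apart by less than 1 log2 unit at their nearest arrays, and the difference was 1.76 ± 0.29 (SE, adjusted p = 0.00247), or 0.95 with the normexp correction.

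Dnah5, an outer arm heavy chain, was the least well measured of the higher dyneins. It was well above background on 2 of 4 control and all 4 PMSG arrays, at -5.57, -8.00, -7.35 and -7.70 on control and -4.80, -5.17, -4.83 and -5.41 on PMSG arrays. Control array 1 lay just below the PMSG arrays and the other control arrays far below. The difference of 2.11 (adjusted p = 0.0118) became 1.37 with an adjusted p of 0.221 in the authors' deposited log2 values and 0.45 with an adjusted p of 0.0410 under the normexp correction.

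Of the other heavy chains, Dnah10 (1.39), Dnah11 (1.28) and Dnah2 (0.77) were higher, with adjusted p of 0.000688, 0.00179 and 0.0133. With the normexp correction Dnah2 gave 0.47. Dnah8 and Dnah17, outer arm heavy chains known from sperm, had differences of 0.56 and 0.28 and did not pass. Without PMSG array 4 Dnah8 passed (0.70, adjusted p = 0.0397). Dnah7 was above background on 1 PMSG array alone. Among the smaller chains Dnali1, of the inner arms, differed by 1.56 and Dnai2, of the outer arms, by 1.15. Dnai2 was the 1 higher gene whose groups overlapped: PMSG array 1 read -2.44, below control array 1 at -2.33. Its adjusted p of 0.0292 reached 0.0775 at most and passed 0.05 under median scaling, with the replicate block and without control array 2, 3 or 4 or PMSG array 2 or 3. The light chains Dnal1 and Dnal4 had differences of -0.19 and 0.20, and neither passed.

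Of the 4 radial spoke genes 3 were higher, and Rsph6a did not pass. Rsph9, a spoke head protein, read -1.69, -2.20, -1.85 and -2.16 on control and -0.57, -0.41, -0.16 and 0.18 on PMSG arrays. The groups were more than 1 log2 unit apart, and the difference was 1.74 ± 0.19 (SE, adjusted p = 0.000432). Rsph10b read -0.02, -0.63, -0.19 and -0.91 on control and 0.85, 1.25, 1.41 and 1.95 on PMSG arrays, a difference of 1.80 (adjusted p = 0.00162). Rsph1 read 0.65, 0.32, 0.50 and -0.03 on control and 1.41, 2.07, 1.79 and 2.43 on PMSG arrays, a difference of 1.57 (adjusted p = 0.00164). Both have PMSG array 4 on top and control array 4 at the bottom.

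Rsph6a, a spoke head protein best known from sperm, ran otherwise on PMSG array 4. It read -2.08, -2.10, -2.23 and -2.14 on control and -1.33, -1.62, -1.23 and -2.35 on PMSG arrays, so that PMSG array 4 was below all control arrays. The difference of 0.50 did not pass (adjusted p = 0.129), and without PMSG array 4 it was 0.74 with an adjusted p of 0.00296. Leaving out that array also raised the calls over all tested probes from 8658 to 11301.

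The central pair had 3 tested genes, all higher. Spag6, a central pair protein, read -0.17, -0.70, -0.54 and -1.05 on control and 0.57, 1.02, 0.81 and 1.59 on PMSG arrays, a difference of 1.61 ± 0.26 (SE, adjusted p = 0.00201). Its probe nearer the 5′ end differed by 0.40 and did not pass (adjusted p = 0.177). RefSeq now gives the name Spag6l to the accession that the array calls Spag6, and the array's own Spag6l probe was above background on 1 control array alone, so which paralogue was read is uncertain.

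Spef2, a central pair protein, read -3.33, -3.85, -3.85 and -4.00 on control and -2.75, -1.98, -2.41 and -1.78 on PMSG arrays, a difference of 1.53 (adjusted p = 0.00189). Spag16 read -5.27, -5.47, -5.35 and -5.44 on control and -4.54, -4.91, -4.46 and -5.21 on PMSG arrays. Its control arrays lay close together and PMSG array 4 was barely above them. The difference of 0.60 (0.28 with the normexp correction and 0.33 under quantile normalization) had an adjusted p of 0.0281, which lay between 0.0568 and 0.118 without control array 2, 3 or 4 or PMSG array 1 or 3, with the normexp correction and with a trended variance. Hydin, a large central pair protein, was not tested: it was above background on no control array and 3 PMSG arrays, at -7.79 to -8.64 on control and -6.30, -7.61, -6.23 and -6.13 on PMSG arrays.

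CCDC39 and CCDC40 form the ruler that sets the spacing of inner arms and spokes along the doublet. Ccdc39 read -3.01, -3.28, -3.49 and -3.88 on control and -1.95, -1.56, -1.39 and -1.06 on PMSG arrays, a difference of 1.92 ± 0.24 (SE, adjusted p = 0.000666). Ccdc40 read -2.03, -2.23, -1.94 and -2.19 on control and -1.01, -0.83, -0.71 and -0.25 on PMSG arrays, a difference of 1.40 ± 0.17 (SE, adjusted p = 0.000618). Both partners were higher on every PMSG array than on any control array.

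Tektins are filament proteins that lie inside the doublet microtubules. Tekt2 read -2.22, -2.63, -2.17 and -3.10 on control and -0.95, -0.44, -0.63 and -0.05 on PMSG arrays, a 4.02-fold higher mean with a difference of 2.01 ± 0.26 (SE, adjusted p = 0.000777). Tekt1 read -3.01, -3.52, -3.05 and -3.37 on control and -2.64, -2.05, -1.95 and -1.43 on PMSG arrays, a difference of 1.22 (adjusted p = 0.00654). Tekt4 read 0.29, -0.07, 0.28 and -0.40 on control and 0.75, 1.27, 1.56 and 1.88 on PMSG arrays, a difference of 1.34 (adjusted p = 0.00522). These groups did not overlap, while Tekt3 arrays did, at -2.68 to -1.74 on control and -1.96 to -1.26 on PMSG arrays (difference 0.55, adjusted p = 0.101). Tekt5, known from sperm, was not above background on any array.

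**Figure D2:**
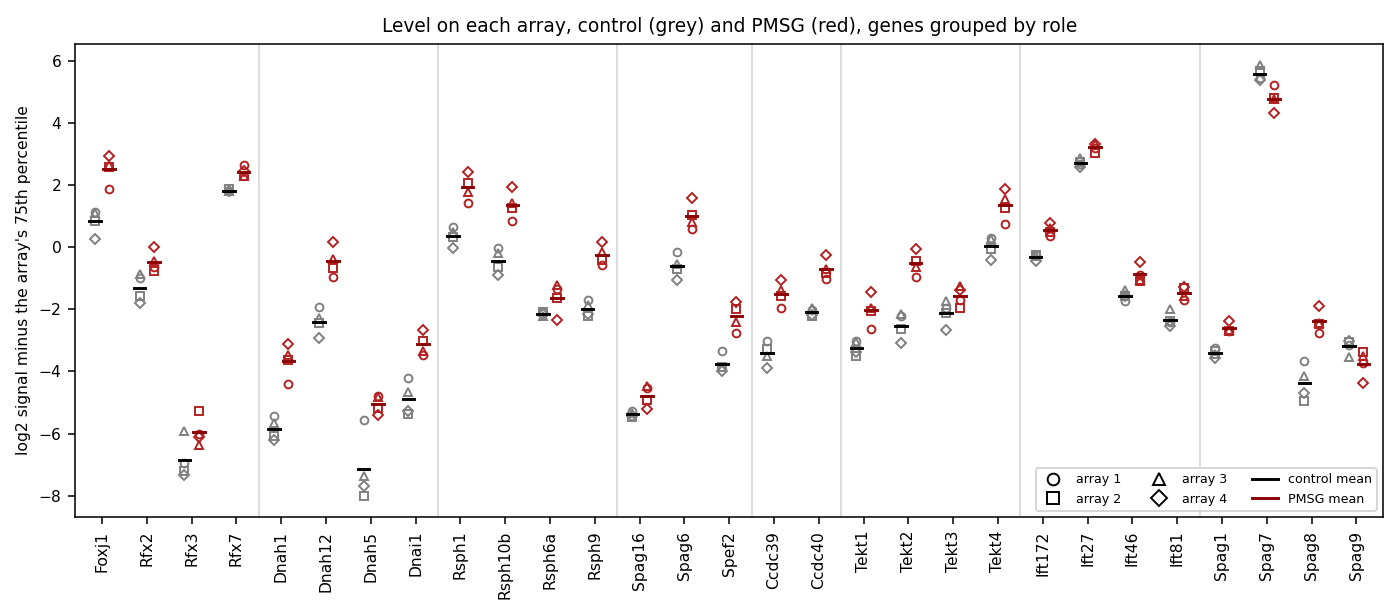
Level of the 29 named genes on each array (log2 signal minus the array's 75th percentile), control in grey and PMSG in red, with a marker shape for each array number and bars at the group means. PMSG array 4 (diamonds) is the highest PMSG array for most structural genes but the lowest for Dnah5, Rsph6a and Spag16.

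Intraflagellar transport genes, which primary cilia share, had 5 of 12 tested members higher. Ift172, of the IFT-B complex, read -0.25, -0.25, -0.27 and -0.46 on control and 0.35, 0.50, 0.63 and 0.79 on PMSG arrays, a difference of 0.87 ± 0.12 (SE, adjusted p = 0.0010). Ift81 of the same complex read -2.41, -2.39, -1.98 and -2.53 on control and -1.71, -1.32, -1.56 and -1.30 on PMSG arrays, a difference of 0.86 (adjusted p = 0.00359). No array of either gene crossed into the other group. Ift46 (0.70) and Ift27 (0.49) passed as well but not under median scaling, with adjusted p of 0.0809 and 0.0947. Ift57 (0.39) passed at an adjusted p of 0.0465 and lost the call under 11 of 18 alternatives, among them each left-out array but PMSG array 1, with adjusted p up to 0.397.

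The remaining 7 transport genes, Ift122, Ift20, Ift43, Ift52, Ift74, Ift80 and Ift88, did not pass, with differences from -0.16 for Ift43 of the IFT-A complex to 0.38 for Ift88. Ift52, well above background everywhere, had 0.02 with a 95% confidence interval of -0.24 to 0.28.

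Other Spag-named genes did not share a direction. Spag8, a protein of ciliary microtubules, read -3.68, -4.97, -4.14 and -4.69 on control and -2.76, -2.48, -2.43 and -1.90 on PMSG arrays, a difference of 1.98 ± 0.30 (SE, adjusted p = 0.00168), or 1.25 with the normexp correction. Spag1, which helps assemble dynein arms in the cytoplasm, read -3.25, -3.34, -3.43 and -3.56 on control and -2.70, -2.69, -2.66 and -2.37 on PMSG arrays, a difference of 0.79 (adjusted p = 0.00147). Both of these cilium-related members were above all control arrays on every PMSG array.

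Spag7 read 5.43, 5.68, 5.85 and 5.38 on control and 5.22, 4.81, 4.76 and 4.32 on PMSG arrays, and its difference of -0.81 (adjusted p = 0.0151) is the 1 lower call among the genes. Spag4, a nuclear envelope protein, differed by 0.48 (adjusted p = 0.0236), but its adjusted p passed 0.05 under quantile normalization, median scaling and the replicate block and without control array 2 or 3 or PMSG array 1 or 2, reaching 0.110. Spag9, a scaffold of JNK signalling, differed by -0.57 and missed the threshold here (adjusted p = 0.0880), and it passed under quantile normalization (0.0201), median scaling (0.0248) and with the slide row as a block (0.0434). Spag5, a mitotic spindle protein, and the defensin-like Spag11b and Spag11c had differences of -0.26, -0.44 and 0.49 and did not pass. Spag11c passed with array weights (adjusted p = 0.0305) and without PMSG array 2 (0.0393) or PMSG array 4 (0.0465).

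Within the PMSG group the axonemal genes also differed from array to array. The median deviation of the 26 axonemal genes from their control means was 1.03, 1.30, 1.43 and 1.85 on PMSG arrays 1 to 4 and 0.26, -0.09, 0.14 and -0.30 on control arrays 1 to 4. PMSG array 4 was the highest PMSG array for 18 of the 26 and PMSG array 1 the lowest for 17, and control array 4 was the lowest control array for 14. Over the brightest probe of every gene name these shares were 21.1% for PMSG array 4 as the highest, 16.7% for PMSG array 1 as the lowest and 31.6% for control array 4 as the lowest. Leaving out PMSG array 4 left 22 of the 26 axonemal genes higher, and leaving out any other array left 18 to 20. Calls over all tested probes moved too, from 8658 to 11301 without PMSG array 4 and to 6524 without control array 4. The transport genes had medians of 0.21, 0.30, 0.24 and 0.62 on the PMSG arrays.

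The slide carried its arrays in 2 rows, each with arrays of both labels, and no other batch was found. Within row 1 and within row 2 all 31 higher genes had a positive difference, with medians of 1.65 and 1.21. For 30 of these 31 every PMSG array lay above every control array, so the sign within a row was fixed beforehand. These values are a description and no check on the rows.

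Genes with 2 tested probes did not always give 1 answer. Dnah12 agreed at 1.98 and 1.94, Dnah10 gave 0.52 (not called) near the 5′ end and 1.39 further on, and Rfx7 ran both ways. Dnah17 gave -0.44 and 0.28, Ift52 gave -0.35 and 0.02 and Ift122 gave 0.06 and 0.33, none of them called.

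**Figure D3:**
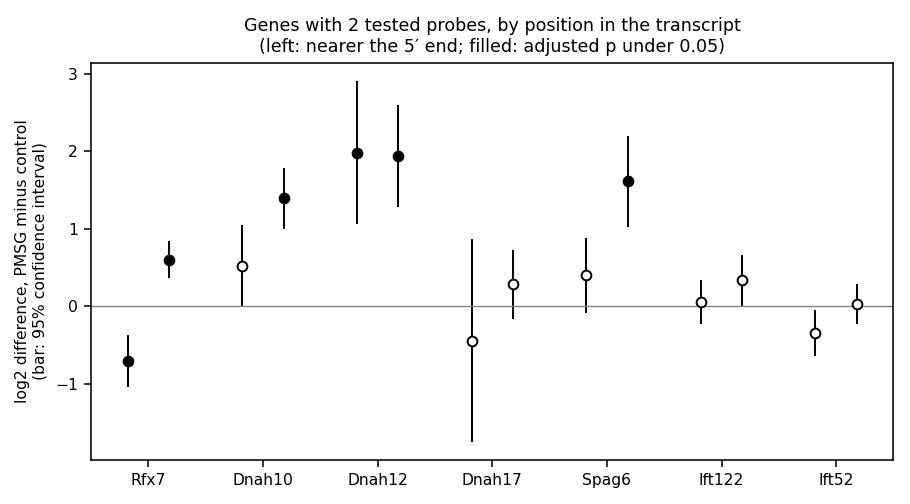
Log2 difference, PMSG minus control, at both tested probes of the 7 genes that have 2, with 95% confidence intervals from limma (4 arrays a group); the left point is nearer the 5′ end of the transcript. Rfx7 runs from -0.71 to 0.60, whereas the Dnah12 probes lie at 1.98 and 1.94.

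Genes of motile cilia that the naming rule leaves out were given by lists of textbook members. These lists too were chosen with earlier results of these data known. The nexin-dynein regulatory complex, which links neighbouring doublets, had 10 of 10 tested genes higher with a median of 1.22, among them Ccdc164 (1.84) and Iqcg (1.84). Axoneme and ciliary cytosol proteins had 51 higher and 1 lower of 67, with a median of 1.26, or 0.76 with the normexp correction. Iqca1 (2.18), Tsnaxip1 (2.08) and Lrrc23 (2.08), a spoke protein, led them, and with that correction Iqca1 gave 1.18 and Tsnaxip1 1.38. The lower gene was the general tubulin Tuba1a (-1.02), and a second was lower under median scaling or without PMSG array 3.

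Factors that assemble or dock dynein arms had 10 higher and 1 lower of 14, with a median of 0.95 (0.56 with the normexp correction) and Zmynd10 (1.86), Pih1d3 (1.71) and Ccdc103 (1.63) ahead. Median scaling left 6 of them higher. The lower gene, Heatr2 (-0.38), did not pass with the normexp correction, the replicate block or a trended variance, or without control array 1, 2 or 3 or PMSG array 1 or 2. Transcription and basal body genes had 6 higher and 2 lower of 19, with a median of 0.16, which was 0.10 or 0.05 without PMSG array 3 or 4, 0.08 with array weights and -0.01 under median scaling. Tp73 (1.84), Foxn4 (1.82) and Ccno (1.67), which act early in multiciliated cells, were higher, and the centriole genes Stil (-0.99) and Sass6 (-0.43) were lower. With the normexp correction Tp73 was 1.00, Foxn4 1.19 and neither Stil (-0.11) nor Sass6 passed. Sass6 also lost its call in the deposited values, with no filter or a trended variance and with any array left out but control 1 or PMSG 2, and Foxn4 under quantile normalization, with the replicate block and without control array 2 or 4 or PMSG array 2 or 3. Transport motors, BBSome and other primary cilium genes had 18 higher and 2 lower of 44, with a median of 0.29, and 9 higher with a median of 0.12 under median scaling. The lower calls numbered 4 under median scaling or without PMSG array 4 and 1 with the replicate block or without control array 1 or 3 or PMSG array 1 or 2.

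Markers of some other cells were often higher as well, and their part in the result was not tested. Dividing-cell markers and granulosa and theca markers, described further below, had medians of -0.40 and -0.36. Non-ciliary oviduct epithelium markers had 8 of 17 tested genes higher and none lower, and their summed signal, in units of the 75th percentile, was 29.4 to 39.3 on control and 50.7 to 79.9 on PMSG arrays. Muc1 (3.04, or 1.45 with the normexp correction, above background on 3 of 4 control arrays), Cdh16 (2.51) and Cldn4 (1.72) led, while Krt7 (-0.11) and Epcam (0.45) did not pass. PMSG array 4 was the highest PMSG array for 14 of these 17, for 18 of the 26 axonemal genes and for 9 of the 12 transport genes. Ovarian surface markers had 5 of 8 higher, led by Gpm6a (1.1), Wt1 (1.04) and Bnc1 (0.96), and Muc16 was not tested. None was lower, but 1 was under quantile normalization or median scaling. Their sums were 8.26 to 11.1 on control and 14.0 to 16.1 on PMSG arrays. Whether these markers are confined to surface cells in this tissue was not tested. For 1 of these 8 PMSG array 4 was the highest PMSG array.

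Oocyte markers were higher for 15 of 15, with a median of 1.84, sums of 5.17 to 9.01 and 18.3 to 33.5, and H1foo (2.22), Zar1 (2.18) and Zp2 (2.17) ahead. PMSG array 4 was the highest for none of them. Late male germ cell markers, which could share tail genes, had 3 of 7 higher with sums of 0.466 to 0.528 and 0.647 to 0.891, and none under median scaling, 1 under quantile normalization or without control array 4 or PMSG array 1, and 5 with array weights or without PMSG array 4. All 7 tested genes had a positive difference, with a median of 0.76. Tnp2, Odf1, Akap4, Smcp and Pgk2 of the same list were not above background on any array.

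**Figure D4:**
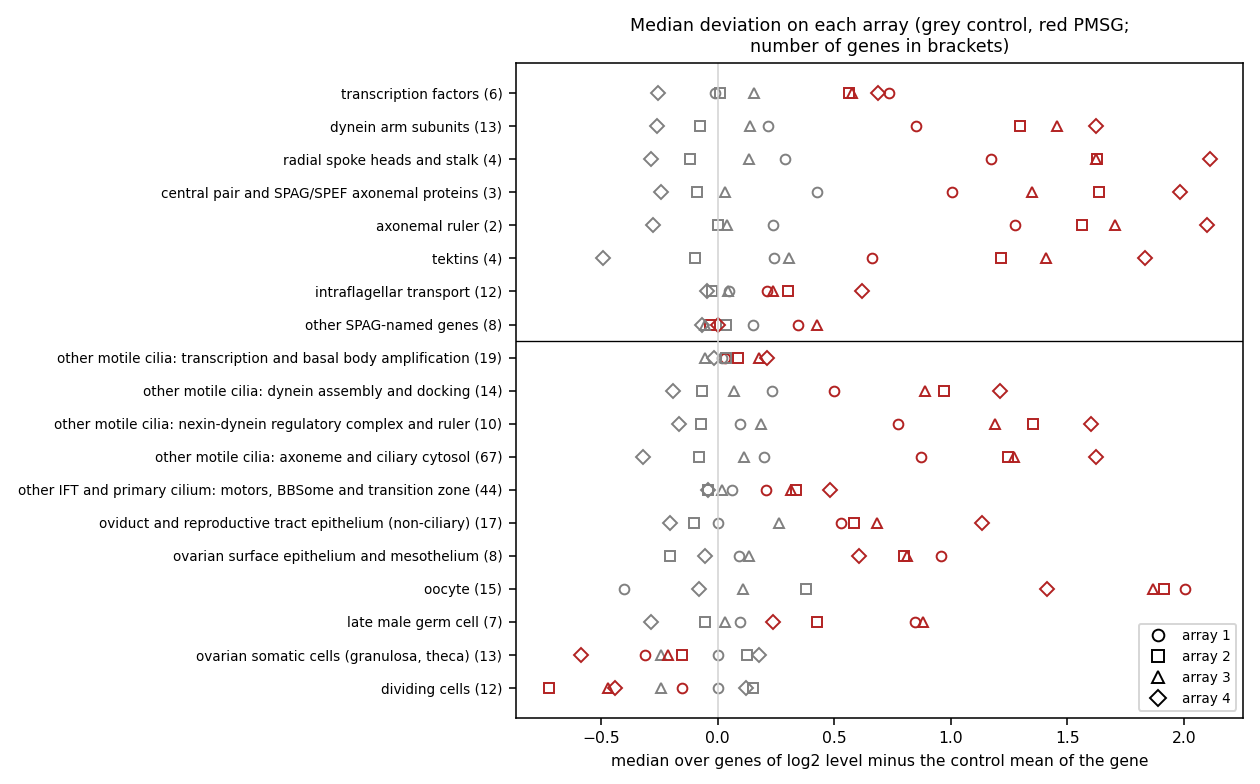
Median deviation from the control mean (log2) on each array for each role and marker list, control in grey and PMSG in red, with the number of genes in brackets. In the structural roles, the transport genes and the oviduct epithelium list PMSG array 4 (diamonds) lies furthest right. In the oocyte and ovarian surface lists it is the lowest of the PMSG arrays.

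Promoters from RefSeq (build GRCr8, 250 bases before to 50 bases after a gene's start) were found for 46 of the 57 genes, in 55 windows. The planned X-box string, GTTNCC and GGNAAC parted by 2 bases and read on both strands, was in none of them and in 0.472% of all 33469 windows. The planned forkhead string GTAAACA was in 3 of the 55 (5.45%, in Dnali1, Spef2 and Tekt3) and in 3.78% of all. After that result 16 further strings were tried, 18 in all: GTTGCC and ATGGNAAC joined, GTTNCC alone, and GTTGC with GCAAC and GTTNC with GNAAC at spacings of 0 to 6 bases. The string shown here, GTTGC and GCAAC parted by 3 bases, was picked from these after the matches were seen, so its count is a description that supports nothing. It lies in 4 of 55 member windows (7.27%) and 0.278% of all windows. It overlaps GTTNC with GNAAC at the same spacing, which was in 5 member windows (9.09%) and 0.887% of all. The short GTTNCC was in 39 member windows (70.9%) and 46.0% of all.

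These 4 windows are shown because their genes are members with the match close to the start, and capitals mark the match. Each line gives the 100 bases before the start.
Dnah7 (chr9:62756616-62756715, - strand): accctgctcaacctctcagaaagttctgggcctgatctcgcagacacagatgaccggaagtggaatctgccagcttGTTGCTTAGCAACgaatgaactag
Dnai2 (chr10:100258922-100259021, + strand): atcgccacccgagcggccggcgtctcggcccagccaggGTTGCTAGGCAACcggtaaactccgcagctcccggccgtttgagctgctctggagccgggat
Tekt2 (chr5:143907725-143907824, - strand): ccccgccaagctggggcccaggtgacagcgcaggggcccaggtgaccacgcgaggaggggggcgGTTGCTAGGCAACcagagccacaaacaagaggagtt
Tekt4 (chr10:14992184-14992283, + strand): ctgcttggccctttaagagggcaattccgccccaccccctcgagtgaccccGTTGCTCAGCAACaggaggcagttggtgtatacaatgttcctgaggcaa
The matches begin 24, 62, 36 and 49 bases before the start. Tekt2, Tekt4 and Dnai2 were among the higher genes and Dnah7 was not tested. A match is a description of letters in these windows and not a measured site.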

How the data were processed

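The spot intensity values come from Agilent Feature Extraction (version 11.5.1.1, per the file headers), and the authors deposited these scanner files and a table of log2 values scaled to each array's 75th percentile. Here the processed signal was log2 transformed, outlier and control spots were left out, spots of a probe were averaged and each array's 75th percentile was subtracted. Of 30367 probes 17 had no usable spot, and 25303 were well above background on at least 4 of 8 arrays and were tested with limma 3.58.1 (lmFit and eBayes, no covariates, threshold 0.05). P-values were adjusted over the whole array. The number of arrays, 4 a group, limits the precision. For a gene with several probes the brightest tested probe stands. Genes named by rule are Foxj1, the 4 with the largest difference in each role, all of a role with 6 or fewer, and those with probes in opposite directions or called against their role, and the other members are given more briefly. Of each list genes with the largest difference are named, and other list genes were picked after their values were seen. The members and lists were chosen with earlier results of these data known. The fit was tested on simulated data. Those had independent probes and far fewer changed probes than were called here, so they do not vouch for the p-values. Columns not used numbered 0.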

Additional observations from a re-analysis of the deposited data

Results flagged for a closer look

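Among 58 groups of 4 arrays examined 2 held an array far from its 3 neighbours, and chance alone gives about 2.9. Ift172 on control array 4 read -0.46 against -0.27 to -0.25 on the other control arrays, a gap that was 0.897 of the group's range. Spag1 on PMSG array 4 read -2.37 against -2.70 to -2.66 on the other PMSG arrays, a gap of 0.884 of the range. Leaving out either array kept both genes called.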

How the results depend on the processing

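The main choices were varied 1 at a time: background correction, scaling, deposited log2 values, filter on dim probes, array weights, slide row, variance model and each array left out. The number of member probes called was 34 of 59 and stayed between 29 and 37 with an array left out, and member genes called were 27 to 34 (32 with all arrays). Member probes called at 2-fold or more were 21, or 20 to 21 with an array left out, 16 with the normexp correction and 22 with no filter on dim probes. All tested probes called ranged from 6524 to 11301 against 8658, lowest without control array 4 and highest without PMSG array 4. The median difference of member probes, 0.60, was 0.45 with the normexp correction and 0.43 under median scaling, and 0.50 to 0.66 with an array left out. For the scaling, subtracting a different percentile shifts every probe by the same amount on an array, and the normexp correction adds an offset of 50 to every signal. It moved 6 called member genes by over 1.5 times and 1 of them, Spag16, lost its call. Of the 32 called genes 24 kept their call in every alternative in which they were tested, 8 lost it in at least 1 and none changed direction. Deviations of arrays with the same replicate number correlated at 0.0444, 0.0361, 0.183 and -0.0192 over 25303 probes. Arrays with different numbers were not compared, so whether the numbers pair the arrays was not settled. With the replicate block 30 member probes were called, all 30 among the 34. Dim signals limit Dnah1, Dnai1 and Spag16, which were well above background on all 8 arrays, and more so Dnah5, Rfx3, Hydin and the genes not tested.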

Other observations

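Other cell markers gave the following values. Dividing-cell genes had none higher and 5 lower of 12, with a median of -0.40 and Ccnb1 (-0.65), Aurka (-0.59) and Kif20a (-0.58) furthest down. The lower calls numbered 0 without control array 2 or 4, 2 without control array 1 or PMSG array 2, 3 without PMSG array 3 or under quantile normalization and 1 with the replicate block. Granulosa and theca markers had 2 higher and 4 lower of 13. Of the neuron, ependyma and airway markers Tubb3 (-1.68) and Map2 (-1.08, or -0.57 with the normexp correction) were lower, none was higher of 5 tested (1 with array weights or the replicate block and 2 without PMSG array 4), and Gfap and Syt1 were not tested. Striated muscle markers had Tnnt3 (2.00, or 1.04 with the normexp correction) and Myh4 (1.33) higher and Acta1 (-1.82) lower of 7, with 1 higher in place of 2 under the normexp correction, in the deposited values and with any array but control 1 or PMSG 4 left out.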
